A study of Homo sapiens with 15 samples.

Results

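The receptors of the EGFR family, their EGF-like ligands and the hepatocyte growth factor receptor MET were followed as 8 genes chosen by name, EGFR, ERBB2, ERBB3 and MET among the receptors and AREG, EREG, HBEGF and TGFA among the ligands, of the 59608 genes in the deposited table. MDA-MB-231 cells, a triple-negative human breast cancer line, were grown in 2D culture as triplicate dishes and kept for 6 h in ZJ-101 at 0.5, 5, 50 or 500 nM, or in the vehicle DMSO at 0.1%. ZJ-101 is a synthetic compound modelled on superstolide A, a macrolide from a marine sponge, with a simpler structure. Each of the 5 groups held 3 libraries, 15 in all, and poly-A RNA was sequenced. All groups were this 1 cell line, for which the labels give no genetic change, and all doses were compared with the same 3 DMSO libraries. Because bulk RNA was measured, less RNA per cell and fewer cells with the transcript cannot be told apart.

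EGFR, ERBB2 and ERBB3 are receptor tyrosine kinases that pair with one another when an EGF-like ligand binds, and signal through RAS-MAPK and PI3K. ERBB2 has no known ligand and acts as a partner, and ERBB3 has a weak kinase and binds neuregulins. The ligands amphiregulin (AREG), epiregulin (EREG), heparin-binding EGF-like growth factor (HBEGF) and transforming growth factor alpha (TGFA) are made as membrane-bound precursors and are released by ADAM metalloproteases. MET, the receptor for hepatocyte growth factor, drives migration and invasion in many carcinomas, and high EGFR without hormone receptors is a familiar trait of basal-like breast cancer.

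The values are read counts per gene divided by a size factor of the library, called normalized counts, and the recovered reads on genes numbered 12415519 to 15284762 per library with a median of 13320354. Markers of the line were high, with VIM between 13433 and 18414 normalized counts over the libraries, whereas the estrogen receptor gene ESR1 lay between 0 and 4.30, the progesterone receptor gene PGR between 5.37 and 17.3, the luminal factor gene FOXA1 at most 31.9 and the leukocyte gene PTPRC between 0 and 3.53. Other genes fixed as luminal or epithelial markers were detected, GATA3 between 122 and 168 and CDH1 between 107 and 206, and the endothelial marker PECAM1 lay between 201 and 321. One library stood apart. In 0.5 nM replicate 2, genes with transcripts of at least 5000 nt deviated from their median over the libraries by 0.31 less on the log2 scale than genes of at most 2000 nt, and the same difference lay between -0.08 and 0.06 in the other 14 libraries. Most fold changes and correlations below that use the 0.5 nM group are given with and without it. The slope of FGFR3 and the values of ERRFI1 at 0.5 nM are given with it only.

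At 500 nM, the transcript of EGFR was 1.63-fold that of DMSO and the transcript of AREG was 0.80-fold. At 50 nM, EGFR rose and AREG and EREG fell, and at 500 nM EREG did not pass the test. ERBB2, ERBB3, MET, HBEGF and TGFA did not pass the test at any dose. Counts past an adjusted p of 0.05 by limma were 0 of the 8 genes at 0.5 nM, where 1.17% of the 13561 tested genes passed, and 0 at 5 nM, where 2.18% passed. At an unadjusted p under 0.05 by limma, EREG and HBEGF passed at 0.5 nM and AREG, EREG and HBEGF at 5 nM. Many other genes passed this looser limit. The weakest of these calls, EREG, ranked 1573 by p among the 13561 genes at 0.5 nM and 1502 at 5 nM. These unadjusted calls therefore say nothing particular about the ligands. After adjustment, edgeR and DESeq2 also gave 0 of the 8 genes at both doses. By the adjusted p of 0.05, 3 of 8 passed at 50 nM, against 6.00% of all tested genes (2.29% up and 3.71% down). At the highest dose 2 of 8 passed, against 17.8% (7.69% up and 10.1% down). At 500 nM the share is near the background and says nothing particular about these genes.

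The 250 bases upstream of the 5′-most annotated start of EGFR and of the start of AREG and EREG are shown because these genes moved, in RefSeq coordinates on GRCh38.p14, all on the plus strand. Capitals mark matches to the motifs searched on both strands, which were the cyclic AMP response element TGACGTCA, the AP-1 element TGANTCA, a heat-shock element core GAANNTTC, the GC box GGGCGG and the TATA box TATAAA.
EGFR, chr7:55018767-55019016: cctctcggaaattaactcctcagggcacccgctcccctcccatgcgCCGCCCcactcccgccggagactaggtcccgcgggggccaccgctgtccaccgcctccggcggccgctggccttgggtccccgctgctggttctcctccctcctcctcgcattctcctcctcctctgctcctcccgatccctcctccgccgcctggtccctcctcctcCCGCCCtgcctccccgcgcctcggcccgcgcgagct
AREG, chr4:74444886-74445135: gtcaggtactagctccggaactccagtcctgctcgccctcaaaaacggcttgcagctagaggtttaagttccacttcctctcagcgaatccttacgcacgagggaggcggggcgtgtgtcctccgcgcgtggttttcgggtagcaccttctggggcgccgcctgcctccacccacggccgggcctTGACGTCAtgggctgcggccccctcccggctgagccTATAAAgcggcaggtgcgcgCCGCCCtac
EREG, chr4:74364895-74365144: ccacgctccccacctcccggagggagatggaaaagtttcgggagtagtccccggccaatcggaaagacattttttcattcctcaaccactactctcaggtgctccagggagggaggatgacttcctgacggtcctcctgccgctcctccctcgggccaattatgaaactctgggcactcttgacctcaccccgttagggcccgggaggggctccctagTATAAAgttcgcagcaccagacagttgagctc
The window of EGFR held GC boxes at positions -204 to -199 and -36 to -31, counted backwards from the base before the start as -1, and none of the other motifs. A second EGFR start in RefSeq, inside the gene, has its own window (chr7:55109589-55109838), not printed because part of it is annotated as exon, which held AP-1 elements at -232 to -226 and -136 to -130 and TATA boxes at -146 to -141 and -36 to -31. Reads were counted per gene, so the values do not separate the starts. In AREG the cyclic AMP response element lay at -65 to -58, the TATA box at -29 to -24 and a GC box at -9 to -4. EREG held only the TATA box, at -32 to -27. Among 35116 RefSeq windows of this kind, 1.65% held the cyclic AMP response element, 6.57% the AP-1 element, 5.78% the heat-shock core, 42.6% the GC box and 10.7% the TATA box. No match in the printed windows overlapped another, and the matches describe letters and were not tested as binding sites.

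**Figure D1:**
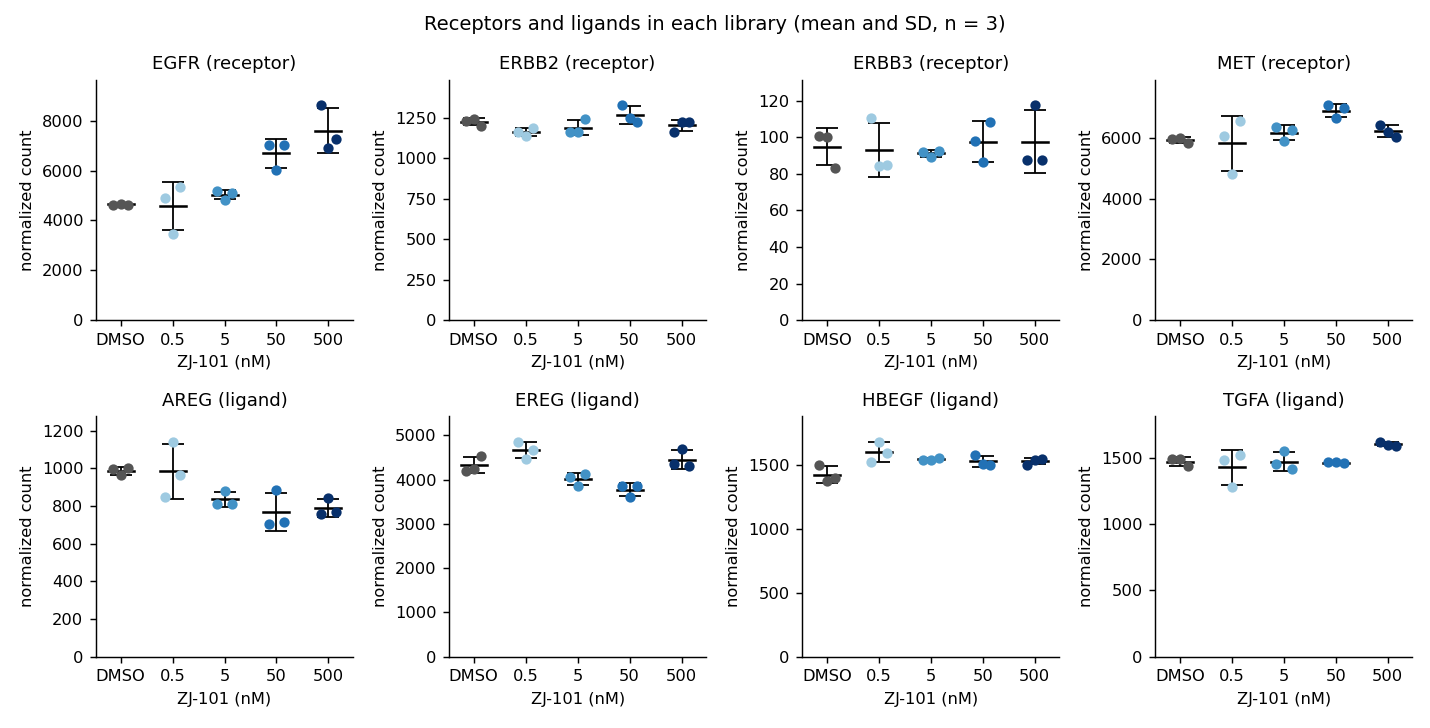
Normalized counts (y axes, from 0) of the 4 receptors and 4 ligands in each library by dose of ZJ-101 (x axes, nM), with points for the 3 libraries of a group and black lines for the mean and SD. EGFR climbed from 4641 in DMSO to 7599 at 500 nM, AREG was lowest at 50 nM, and EREG was lower at 50 nM than at 500 nM.

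EGFR (chromosome 7, 55019017 to 55211628, plus strand, GRCh38) was the member that changed most. Its normalized counts were 4617, 4676 and 4629 in the DMSO libraries, then 4911, 3471 and 5340 at 0.5 nM and 5174, 4829 and 5090 at 5 nM. They reached 7008, 6019 and 7043 at 50 nM and 8610, 6919 and 7270 at 500 nM. All 3 libraries at 5, 50 and 500 nM lay above all DMSO libraries, those at 0.5 nM fell on both sides, and the lowest 500 nM library was below the 2 highest at 50 nM. The log2 fold change was 0.52 (SE 0.11, adjusted p = 0.0062, limma) at 50 nM and 0.70 (SE 0.11, adjusted p = 1.7e-04) at 500 nM, with a 95% interval of 0.47 to 0.94 at the latter dose. At 5 nM it was 0.12 (adjusted p = 0.74), and at 0.5 nM -0.04 (adjusted p = 0.91). Per dose rank, with DMSO as the lowest rank, EGFR rose by 0.20 on the log2 scale (SE 0.03, adjusted p = 6.5e-05, limma), and the slope passed for 17.6% of all tested genes. The calls at 50 nM, at 500 nM and for the slope held under all 26 alternatives run for each, and without 0.5 nM replicate 2 the adjusted p was 1.1e-05 at 50 nM and 8.3e-08 at 500 nM and the slope 0.18. Without that library the value at 0.5 nM was 0.14 (adjusted p = 0.44).

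Between neighbouring doses, EGFR rose by 0.41 from 5 to 50 nM (SE 0.11, adjusted p = 0.042, limma), a step that 5.01% of tested genes passed. That call was lost without any 1 of the DMSO libraries (adjusted p = 0.059 to 0.060), without any 1 of the 5 nM libraries (0.086 to 0.15), without 50 nM replicate 1 or 3 (0.16 and 0.15) and without 500 nM replicate 3 (0.055). The step from 50 to 500 nM was 0.18 (95% interval -0.05 to 0.42, adjusted p = 0.52), and that from 0.5 to 5 nM 0.16 (adjusted p = 0.74, and -0.03 without 0.5 nM replicate 2), so that these neighbours were not separated beyond their spread. The antisense gene EGFR-AS1 covers 1.17% of the exon bases of EGFR and reached at most 3.06 normalized counts in any library. Whether the counting used strand is not given in the sources used here.

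ERBB2, the partner receptor without a ligand (chromosome 17, 39687914 to 39730426, plus strand), did not pass the test at any dose. Its counts were 1235, 1242 and 1202 in DMSO, 1164, 1136 and 1191 at 0.5 nM, and 1166, 1227 and 1226 at 500 nM. Libraries at 0.5 nM lay below all of those of DMSO, by a log2 fold change of -0.08 that did not pass (adjusted p = 0.49, limma), or -0.06 without 0.5 nM replicate 2. The difference at 500 nM was -0.02 with a 95% interval of -0.12 to 0.07, which excludes a rise of the size of EGFR. Of its exon bases, 6.93% lie in PGAP3 or MIEN1 on the other strand, and whether the counting used strand is not given in the sources used here.

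ERBB3, the neuregulin receptor (chromosome 12, 56076799 to 56103505, plus strand), was the lowest of the receptors. It gave 101, 100 and 83.2 normalized counts in DMSO and 87.6, 117 and 87.4 at 500 nM, and the groups overlapped at every dose. The log2 fold change lay between -0.05 and 0.04 over the 4 doses, with the value at 0.5 nM moving from -0.03 to 0.04 without 0.5 nM replicate 2. At 500 nM the 95% interval was -0.27 to 0.33, and changes within that interval are not excluded by these libraries.

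MET (chromosome 7, 116672196 to 116798377, plus strand) had its highest mean at 50 nM and did not pass the test at any dose. It gave 5964, 6005 and 5822 normalized counts in DMSO, 6072, 4814 and 6577 at 0.5 nM and 6361, 5909 and 6263 at 5 nM. The 50 nM libraries gave 7073, 6657 and 6992 and the 500 nM libraries 6435, 6206 and 6045. Both of the highest doses lay above all DMSO libraries. The log2 fold change was 0.22 at 50 nM (95% interval 0.06 to 0.38, adjusted p = 0.10, limma) and 0.07 at 500 nM (adjusted p = 0.60), neither past the threshold. At 50 nM the call depended on the 0.5 nM libraries, which enter through the shared estimate of the spread. The adjusted p was 8.9e-04 without 0.5 nM replicate 2 and 0.037 without 0.5 nM replicate 3, and DESeq2 gave 0.041.

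AREG (chromosome 4, 74445136 to 74455005, plus strand), the ligand amphiregulin, was lower at the 3 higher doses. Its normalized counts were 997, 964 and 1001 in DMSO and 847, 1139 and 966 at 0.5 nM. They were 813, 881 and 814 at 5 nM, 704, 886 and 716 at 50 nM and 760, 846 and 767 at 500 nM. Every library at 5, 50 and 500 nM was below every DMSO library, and replicate 2 was the highest of its group at each dose. AREG fell by 0.37 on the log2 scale at 50 nM (SE 0.09, adjusted p = 0.020, limma) and by 0.32 at 500 nM (SE 0.09, adjusted p = 0.020), and the value of -0.24 at 5 nM did not pass (adjusted p = 0.24). The slope of -0.10 per dose rank (SE 0.02, adjusted p = 0.0028) passed under all 26 alternatives and was -0.09 without 0.5 nM replicate 2. The 50 nM call did not hold without DMSO replicate 1, 2 or 3 (adjusted p = 0.071, 0.051 and 0.074) or without 50 nM replicate 1 or 3 (0.12 and 0.11). That at 500 nM did not hold without DMSO replicate 1 or 3 (0.064 and 0.066) or without 500 nM replicate 1 or 3 (0.076 and 0.072). In 0.5 nM replicate 2 AREG, with a transcript of 1234 nt, was 1.26 times the mean of the other 0.5 nM libraries, whereas EGFR, of 9905 nt, was 0.68 times and MET, of 6822 nt, 0.76 times. Without this library the value of AREG at 0.5 nM moved from -0.02 to -0.13 (adjusted p = 0.57), and its adjusted p was 0.0020 at 50 nM and 0.0029 at 500 nM.

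EREG (chromosome 4, 74365145 to 74388749, plus strand), the ligand epiregulin, ends 56387 bases before the start of AREG with no protein-coding gene between them, and it took another course. DMSO libraries gave 4194, 4244 and 4524 normalized counts and 0.5 nM libraries 4843, 4473 and 4669. The counts were 4054, 3862 and 4115 at 5 nM, 3860, 3616 and 3847 at 50 nM, and 4344, 4695 and 4297 at 500 nM. The 5 and 50 nM libraries lay below those of DMSO, while the 500 nM libraries overlapped them. EREG fell by 0.19 on the log2 scale at 50 nM (SE 0.05, adjusted p = 0.018, limma), a call lost without DMSO replicate 3 (adjusted p = 0.11) or 50 nM replicate 2 (0.075). From 50 to 500 nM it rose by 0.24 (SE 0.05, adjusted p = 0.012), a step that 2.28% of tested genes passed, and this was lost without 50 nM replicate 2 (0.079) or 500 nM replicate 2 (0.082). Against DMSO, the 500 nM value was 0.04 (95% interval -0.06 to 0.14, adjusted p = 0.64). From 0.5 to 5 nM the difference was -0.22 and missed the threshold (adjusted p = 0.15), and 0.118% of tested genes passed that step. Without 0.5 nM replicate 2 it was -0.25 and passed (adjusted p = 0.034).

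HBEGF (chromosome 5, 140332843 to 140346603, minus strand) had a mean above that of DMSO at all doses, with no dose past the threshold. Its normalized counts were 1498, 1375 and 1398 in DMSO, 1528, 1679 and 1596 at 0.5 nM, and 1502, 1539 and 1546 at 500 nM, and no treated library fell below the highest DMSO library. The log2 fold changes were 0.17, 0.12, 0.10 and 0.10 from the lowest to the highest dose, with adjusted p of 0.092, 0.25, 0.24 and 0.14 by limma, and the slope on dose was 0.01 (adjusted p = 0.50). Without 0.5 nM replicate 2 the value at 0.5 nM was 0.13 (adjusted p = 0.19) and the slope 0.02.

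TGFA (chromosome 2, 70447284 to 70554193, minus strand) had its highest mean at 500 nM. It gave 1490, 1485 and 1434 normalized counts in DMSO, 1466, 1464 and 1457 at 50 nM and 1615, 1593 and 1590 at 500 nM. All 3 libraries at the highest dose exceeded those of DMSO. The log2 fold change of 0.12 there (95% interval 0.004 to 0.24, adjusted p = 0.15, limma) did not pass, although it did without 0.5 nM replicate 2 (adjusted p = 0.032).

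**Figure D2:**
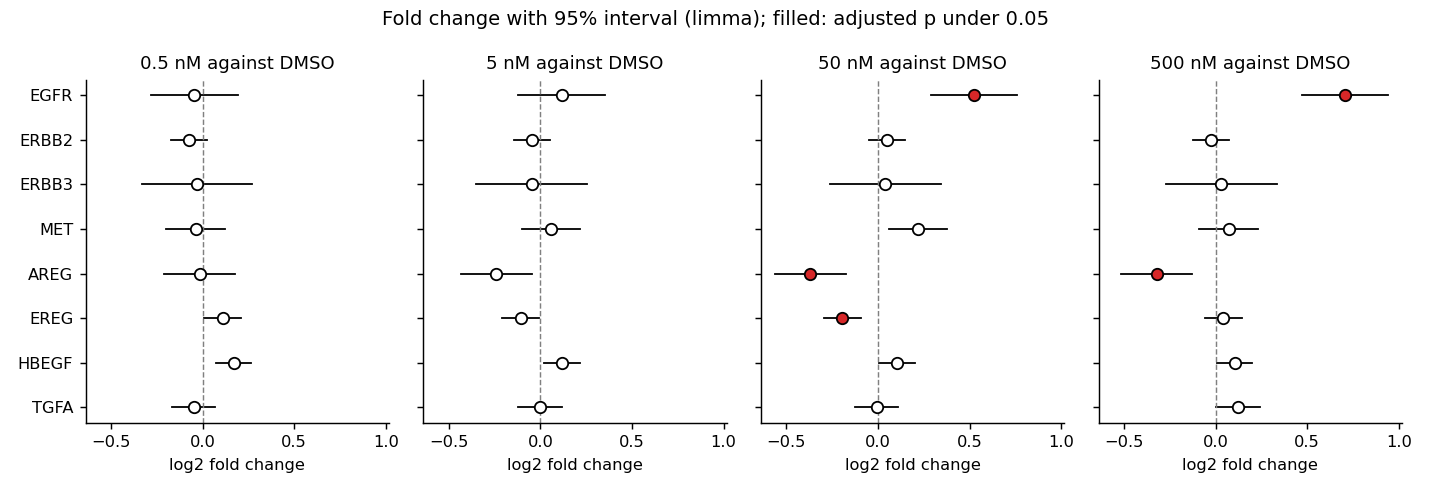
Log2 fold change against DMSO (x axes) with its 95% interval for each gene (y axis) at 0.5, 5, 50 and 500 nM, with filled points for an adjusted p under 0.05 by limma. Filled points are EGFR, AREG and EREG at 50 nM and EGFR and AREG at 500 nM, and EGFR is the only filled point right of 0.

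Libraries of a dose did not overlap those of DMSO for 2 of the 8 genes at 0.5 nM (18.1% of all tested genes), 4 at 5 nM (23.2%), 5 at 50 nM (24.8%) and 5 at 500 nM (38.5%). At 500 nM, EGFR, MET, HBEGF and TGFA lay above DMSO and AREG below it. The doses share the DMSO libraries, so a DMSO library that is high or low moves all 4 comparisons together.

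Levels of different genes were compared per kilobase of the annotated principal transcript. In DMSO, EREG was highest at 936 ± 38.6 normalized counts per kb (SD, n = 3), followed by MET at 869 ± 14.0, AREG at 800 ± 16.4 and HBEGF at 604 ± 27.8. EGFR followed at 469 ± 3.11, TGFA at 357 ± 7.63, ERBB2 at 269 ± 4.68 and ERBB3 at 16.9 ± 1.78. No neighbours in this order overlapped in their DMSO libraries. With all annotated exons as the length, MET at 821 passed EREG at 756, and TGFA at 299 and EGFR at 291 overlapped, so these 2 pairs have no settled order. At 500 nM, EGFR reached 767 ± 90.1 normalized counts per kb and stood above HBEGF at 649 ± 10.1 and AREG at 641 ± 38.3, whose libraries overlapped, whereas over all exons EGFR at 477 was below AREG at 482, with overlapping libraries. Per kilobase of the principal transcript, EGFR was 0.59 ± 0.016 times AREG in DMSO and 1.20 ± 0.20 times at 500 nM. Relative to ERBB2 it went from 1.74 ± 0.027 to 2.91 ± 0.43.

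**Figure D3:**
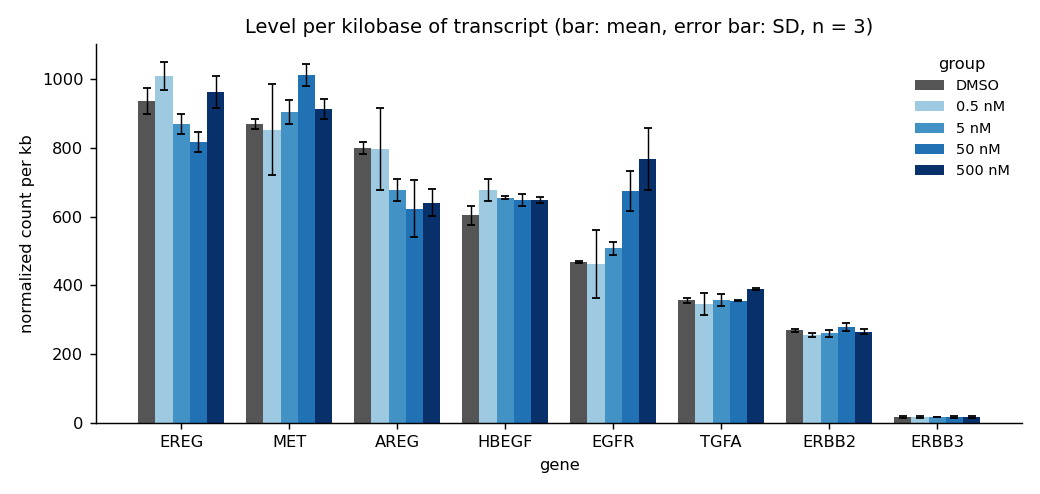
Normalized counts per kilobase of the principal transcript (y axis) for each gene (x axis, in the order of DMSO), with bars for the mean of 3 libraries of each group and error bars for the SD. EGFR goes from 469 in DMSO to 767 at 500 nM and AREG from 800 to 641, while ERBB3 stays at or below 17.4.

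Genes with the most similar course over the 15 libraries were listed as a description, by Pearson r of log2 normalized counts, which share dose and library. EGFR was closest to SPTLC2, a subunit of serine palmitoyltransferase (r = 0.98), and NOTCH1, a signalling receptor (r = 0.97). AREG was closest to MVD, an enzyme of the mevalonate pathway, and to ARL3, a small GTPase (both r = 0.92), and MET to the Golgi mannosidase MAN2A1 (r = 0.92) and SUCO (r = 0.91). TGFA was closest to the forkhead factor FOXK2 (r = 0.91) and RAB3GAP1 (r = 0.90), and HBEGF to SMAGP and TMEM126A (both r = 0.87). ERBB2 had FBXO31 and ALDH3A1 (both r = 0.81), ERBB3 had PPP2R5E (r = 0.83) and SIPA1L2 (r = 0.78), and EREG had CEP120 (r = 0.75). Among the 8 genes, EGFR and AREG ran in opposite directions (r = -0.84, n = 15 libraries) and EGFR and MET in the same direction (r = 0.73), with 0.5 nM replicate 2 low in EGFR and MET and high in AREG. Without that library, a comparison chosen after seeing the data, these were -0.76 and 0.58 over 14 libraries. The correlations with the genes listed above then lay between 0.75 and 0.98, and MET had 0.81 with MAN2A1 and 0.77 with SUCO. Replicate 2 was also the lowest library in EGFR and the highest in AREG at 5, 50 and 500 nM. The r of -0.76 between EGFR and AREG still includes that pattern.

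Other genes of the pathway were taken from 7 lists written from general knowledge. The median log2 fold change of all tested genes at 500 nM was 0.003, and 7.69% of them rose and 10.1% fell at that dose. Apart from NRG1, the remaining EGF-like ligands and ERBB4 were sparse. EPGN, NRG3, NRG4 and ERBB4 were too low to test, and of the 4 tested genes NRG1 rose at 500 nM, while EGF, BTC and NRG2 did not pass. Neuregulin 1, the ligand of ERBB3, gave 2766, 2754 and 2755 normalized counts in DMSO, 3452, 3146 and 3297 at 50 nM and 3329, 3111 and 3104 at 500 nM. Both doses lay above DMSO, with log2 fold changes of 0.26 (adjusted p = 0.0024, limma) and 0.20 (adjusted p = 0.0062).

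Genes that release the ligands fell in part. Of 9 tested, 4 fell at 500 nM (10.1% of all tested genes) and the other 5 did not pass, with a list median of -0.09. The sheddase ADAM10, which releases EGF and betacellulin, gave 3041, 3090 and 3031 normalized counts in DMSO, 1947, 2132 and 1976 at 50 nM and 1580, 1691 and 1523 at 500 nM, with no overlap between the groups. It fell by 0.60 on the log2 scale at 50 nM (adjusted p = 1.1e-06, limma) and by 0.94 at 500 nM (SE 0.06, adjusted p = 1.2e-09). ADAM17, the main sheddase of TGFA, AREG and HBEGF, went from 829 ± 8.52 (SD, n = 3) to 662 ± 39.0 and fell by 0.33 (adjusted p = 0.011), a call lost without 500 nM replicate 2 (adjusted p = 0.057). The other falls, named after their values were seen, were ADAM15 (-0.15, adjusted p = 0.031) and FRMD8 (-0.26, adjusted p = 0.019). FRMD8 binds iRhom proteins and stabilizes ADAM17. How the calls of ADAM15 and FRMD8 held under the alternatives is not given here.

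Around MET, its ligand gene HGF was listed at 0 in all 15 libraries, and HGFAC and HPN were too low to test. A count of 0 allows up to 3 reads in a library taken alone, and 0 in all 15 together allows fewer per library. Of 7 tested genes of this list, 1 rose and 3 fell at 500 nM (7.69% and 10.1% of all tested genes), with a median of -0.09. PLXNB2, a plexin that associates with MET, went from 4401 ± 111 to 5484 ± 185 normalized counts and rose by 0.32 (adjusted p = 1.7e-04, limma). SPINT1, an inhibitor of the proteases that activate HGF, went from 205, 193 and 176 in DMSO to 113, 70.8 and 76.8 at 500 nM and fell by 1.16 (SE 0.19, adjusted p = 2.9e-04). ST14, one of those proteases, went from 38.2 ± 2.96 to 24.0 ± 5.09, a fall of 0.67 (adjusted p = 0.035) that was lost without any 1 of the DMSO libraries without 500 nM replicate 1 or 2, with no filter and by DESeq2, with an adjusted p of at most 0.17. The related inhibitor SPINT2 fell by 0.18 (adjusted p = 0.013), and at 50 nM the MET relative MST1R rose by 0.32 (adjusted p = 0.018). Both were named after their values were seen, and their alternatives are not given here.

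Among inhibitors of the receptors and ubiquitin ligases, 1 of 12 tested genes rose and 2 fell at 500 nM, together 3 of 12 against the 17.8% of all tested genes (median -0.04, with CBLC too low to test). ERRFI1, which encodes the EGFR kinase inhibitor MIG6, gave 11490, 11510 and 11666 normalized counts in DMSO, 12030, 11733 and 13862 at 0.5 nM and 12261, 11754 and 13339 at 5 nM. At 50 nM the counts were 8418, 9782 and 8685 and at 500 nM 7807, 8023 and 7882. The low doses lay above DMSO, but the log2 fold changes of 0.11 at 0.5 nM and 0.11 at 5 nM did not pass (adjusted p = 0.43 and 0.53, limma). The high doses lay below DMSO, and ERRFI1 fell by 0.37 at 50 nM (adjusted p = 7.9e-04) and by 0.55 at 500 nM (SE 0.06, adjusted p = 4.3e-06). PTPRJ, a receptor phosphatase that acts on EGFR and MET, went from 5688 ± 56.8 to 4033 ± 409 and fell by 0.50 (adjusted p = 8.8e-04). PTPN1, a phosphatase of the endoplasmic reticulum, rose by 0.15 (adjusted p = 0.017), a call lost without DMSO replicate 3, without 500 nM replicate 1 or 3 and with no filter (adjusted p of at most 0.086). At 5 nM, LRIG2 (0.38, adjusted p = 0.012) and LRIG3 (0.51, adjusted p = 0.019) of this list rose, and at 50 nM LRIG2 did (0.29, adjusted p = 0.030). They were named after their values were seen.

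Of the adaptors and RAS-MAPK and PI3K effectors, 1 of the 26 tested genes reported here rose and 2 fell at 500 nM (11.5%, median -0.06). PIK3R2 was too low to test. Of all tested genes 17.8% passed, but some tested genes of this list are left out here, so the shares cannot be compared. The RAF kinase ARAF rose by 0.24 (adjusted p = 0.0016, limma), and the RAS exchange factor SOS2 fell by 0.31 (adjusted p = 0.0057). The other fall, named after its value was seen, was PIK3CB (-0.15, adjusted p = 0.042), and its alternatives are not given here. Of 10 genes of receptor endocytosis and sorting, EPS15L1 (0.23, adjusted p = 0.0080) and HGS (0.14, adjusted p = 0.044) rose and 8 did not pass, where 17.8% of all tested genes passed. EPS15L1 was lost without DMSO replicate 2 (0.064), and HGS under 12 of 26 alternatives.

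Of 13 other receptor tyrosine kinases tested, 4 rose and 2 fell at 500 nM, against 7.69% and 10.1% of all tested genes (median -0.04), and PDGFRA, FGFR2, KIT, DDR1, DDR2 and ROR2 were too low to test. MERTK, a receptor of the AXL family, went from 392, 409 and 394 normalized counts in DMSO to 768, 674 and 779 at 500 nM and rose by 0.89 (SE 0.07, adjusted p = 1.3e-08, limma). KDR, the VEGF receptor 2, went from 111 ± 5.97 to 196 ± 25.5 and rose by 0.81 (adjusted p = 1.9e-04). FGFR3 was lower at the lowest dose already, at 97.2 ± 10.3 against 169 ± 4.85 in DMSO, a fall of 0.80 (adjusted p = 0.0020), or 0.72 without 0.5 nM replicate 2 (0.0068). It fell by 0.72 at 5 nM (adjusted p = 0.0015) and by 0.82 at 500 nM (2.8e-05), but the 50 nM value, at 136 ± 8.16 normalized counts, was -0.32 and did not pass (adjusted p = 0.11), nor did the slope (0.12). RYK, a Wnt co-receptor, fell by 0.20 (adjusted p = 0.0070). FGFR1 (0.32, adjusted p = 4.6e-05) and AXL (0.22, adjusted p = 5.9e-04), named after their values were seen, rose as well.

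**Figure D4:**
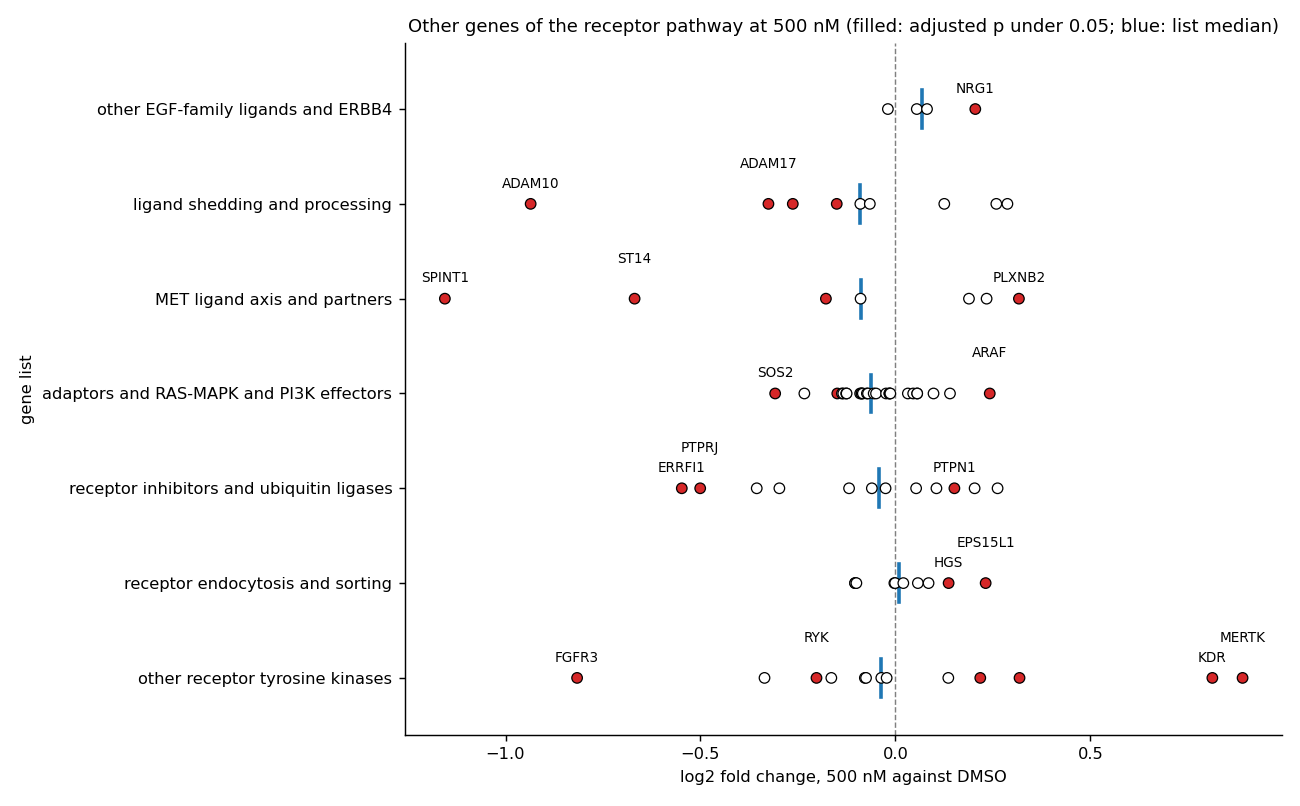
Log2 fold change at 500 nM against DMSO (x axis) of the tested genes of the 7 lists that are reported here (rows), filled where the adjusted p was under 0.05 by limma, with a blue mark at the list median. List medians lie between -0.09 and 0.07, and ADAM10, SPINT1, ERRFI1 and FGFR3 lie left of 0 while MERTK and KDR lie right of it.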

How the data were processed

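Poly-A RNA of 15 MDA-MB-231 libraries was measured. Per the submitters' processing notes and the methods of the study, the authors used HISAT2 for alignment to hg38 and HTSeq for counting, and deposited gene counts divided by DESeq2 size factors, a signal in units of normalized counts (strand setting and versions not given in the sources used here). 1 line names no gene and was dropped. Dividing by the smallest step of a library returned whole reads for 100% of values within 0.001, and size factors lay between 0.916 and 1.13. The 95% intervals come from limma's spread between libraries, and the limit on a count of 0 covers counting error only.

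The 13561 genes whose normalized counts averaged at least 10 were tested with limma 3.58.1 (R 4.3.3, variance trend) on log2(normalized count + 1), which understates changes of low genes, with 5 groups in 1 fit, 10 residual degrees of freedom, Benjamini-Hochberg adjustment and a threshold of 0.05. The slope on dose rank was a separate fit. The labels call the dose libraries biological replicates, and DMSO dishes are only numbered, so p-values measure the spread between these dishes.

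The 8 genes and the 7 lists were chosen with earlier results of these data known. From each list, up to 2 rises and 2 falls with the largest change at 500 nM were named, and for each of the 8 genes the 2 most correlated genes. Some genes these rules take are not reported here and are left out of the counts and medians of their list. Positions and lengths are from GENCODE release 44, which held 93.79% of tested genes, and promoters from RefSeq. With minimap2 2.31-r1302, 0 near-identical genes and 0 copies on 261 alternate contigs were found for the 8 genes. Alternatives were pseudocounts of 0.5 and 5, no filter or a mean of at least 50, TMM scaling, equal totals, edgeR 4.0.16 and DESeq2 1.42.0 on the recovered reads, the replicate number as a block, each library left out, each dose with DMSO alone, the slope over treated libraries, and exon-union lengths. A correction of every library for transcript length and GC content (splines of 4 degrees of freedom) was chosen after seeing the data.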

Additional observations from a re-analysis of the deposited data

How the results depend on the processing

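The rise of EGFR at 50 and 500 nM and the slopes of EGFR and AREG passed under all 26 alternatives each. Leaving out 1 library gave 0 of the 8 genes at 0.5 and 5 nM, 1 to 4 at 50 nM, 1 to 3 at 500 nM, 2 for the slope, 0 to 1 for the step from 0.5 to 5 nM and 0 to 2 for each later step. Over all genes it gave 19 to 391 at 0.5 nM (159 with all libraries), 113 to 623 at 5 nM (295), 560 to 1276 at 50 nM (814) and 1795 to 3097 at 500 nM (2409). Removing the trend on length and GC content, an alternative chosen after seeing the data, gave 2 of the 8 genes at 0.5 nM (EREG and HBEGF), 1 for the first step and 2 for each of the later steps, and 248, 474 and 1230 genes in all at 0.5, 5 and 50 nM. Each dose with DMSO alone gave 1 of the 8 genes at 5 nM (AREG, adjusted p = 0.0052), and 21 and 846 genes in all at 0.5 and 5 nM. DESeq2 gave 1 gene for the first step, and no filter 0 for the second. The causes were not tested.

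MET passed at 50 nM with DMSO alone (adjusted p = 0.0015) and without the trend on length and GC content (8.8e-04), and TGFA at 500 nM likewise (0.025 and 0.029).

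No value that changed sign had passed the threshold. Without the trend on length and GC content they were 0.031 for ERBB3, 0.014 for MET and 0.0011 for TGFA at 0.5 nM, 0.021 and 0.0065 for TGFA at 5 and 50 nM, and 0.0047 for ERBB2 at 500 nM. AREG at 0.5 nM was 0.0041 by edgeR. TGFA at 5 nM was 0.00060 by TMM scaling, 0.0020 by edgeR and 0.00028 by DESeq2, and the slope of HBEGF was -0.021 over the treated libraries. With 1 library left out, values at 0.5 nM ranged from -0.17 to 0.14 for EGFR, -0.16 to 0.036 for ERBB3, -0.13 to 0.092 for MET, -0.13 to 0.087 for AREG and -0.098 to 0.030 for TGFA. ERBB3 ranged from -0.14 to 0.00031 at 5 nM, -0.050 to 0.12 at 50 nM and -0.11 to 0.10 at 500 nM, with a slope of -0.010 to 0.025. TGFA ranged from -0.040 to 0.027 at 5 nM and -0.025 to 0.0030 at 50 nM, and ERBB2 from -0.039 to 6.2e-06 at 500 nM.

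Deviations of same-numbered libraries correlated by r between -0.085 and 0.096 (30 pairs), which describes whole libraries and not single genes. At each dose of ZJ-101, replicate 2 was the lowest library of its group in EGFR and the highest in AREG. In DMSO it was the highest in EGFR and the lowest in AREG. The other genes of the 8 did not keep replicate 2 lowest or highest at all doses. Whether the numbers pair the dishes for single genes was not tested. With the replicate block, 163, 315, 867 and 2506 genes passed from the lowest to the highest dose, and 3 of the 8 genes passed at 50 nM and 2 at 500 nM, as without it. The 3 libraries per group limit what can be seen of changes in ERBB3, whose counts are the lowest.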
